A study of Mus musculus with 4 samples.

Results

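The kinesins are the motor proteins that walk along microtubules, and the genes described here are all those whose name in the scanner files begins with Kif followed by a digit. This rule took 36 genes, measured by 78 of the 41174 probes on the array, out of 27674 genes in all. Each gene is represented by its probe with the brightest mean over the arrays. For comparison they were placed in 4 groups by role: 4 neuronal transport kinesins (Kif1a, Kif3c, Kif5a, Kif5c), 11 mitotic kinesins, 8 cilium kinesins and 13 others.

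Expression was profiled on single-colour Agilent arrays in mouse embryos at E13.5 (E marks the embryonic day), with 1 array for each of CKO brain, WT brain, CKO limb and WT limb. In CKO embryos a floxed Rest gene had been ablated by a doxycycline-inducible Cre. Doxycycline over E8.5 to E13.5 is recorded for the WT samples as well, and all 4 samples shared a mixed 129 and C57BL/6 background. The promoter driving Cre, the number of embryos behind each RNA sample and the floxed part of Rest are not given in the sources used here. Rest encodes a zinc-finger repressor that binds the RE1 element and keeps many neuronal genes low outside the nervous system.

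Kinesins use ATP to step along microtubules, most of them towards the plus end, and their tails choose what they carry. In neurons, kinesins of the Kif5 and Kif1 families move vesicles, mitochondria and other cargo down the axon, and embryonic brain is a tissue in which axons are growing out. A separate set of kinesins acts in dividing cells, where it builds the spindle, moves chromosomes and completes the separation of the daughter cells. Others carry cargo in cilia or move vesicles in most cell types.

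The arrays read each gene through probes of 60 bases. Probes are shown for 3 of the transport kinesins, for Kif1b and for the mitotic Kif23, as examples of what a level below is read from. Those of Kif5a, Kif5c, Kif1a and Kif1b are not the brightest of their gene, and their values are given beside those of the brightest. Sequence and position are those of the scanner files, on mouse build mm9.
Kif5a probe A_52_P93042, chr10:126670966-126671150, minus strand: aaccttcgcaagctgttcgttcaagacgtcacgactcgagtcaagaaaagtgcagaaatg
Kif5c probe A_52_P125429, chr2:49597503-49597562, plus strand: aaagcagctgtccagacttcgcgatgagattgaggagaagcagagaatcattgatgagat
Kif1a probe A_51_P275315, chr1:94916534-94917051, minus strand: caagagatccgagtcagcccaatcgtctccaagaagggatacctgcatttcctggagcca
Kif1b probe A_51_P264956, chr4:148611741-148611800, minus strand: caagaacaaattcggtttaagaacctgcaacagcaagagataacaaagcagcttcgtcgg
Kif23 probe A_52_P27602, chr9:61767733-61768853, minus strand: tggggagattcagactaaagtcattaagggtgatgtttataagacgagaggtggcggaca
The Kif5a, Kif1a and Kif23 probes cover 185, 518 and 1121 bases of genome with 60 bases of probe, so each bridges a gap in the genome. The Kif5c and Kif1b probes each match 1 unbroken stretch of 60 bases.

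All levels below are log2 signal relative to the 75th percentile of the array, which is 0, and a difference is between 2 such levels. Spots well above background made up 70.7% of non-control spots on CKO brain, 64.5% on WT brain, 68.6% on CKO limb and 62.7% on WT limb. Of the 36 kinesins, 30 were well above background on every array, and Kif17 and Kif2b on none. With 1 array per group there is no spread between embryos and no test of CKO against WT within a tissue, so a difference is called there by size, at least 2-fold. The technical spread within an array is known from 245 probes printed 10 times: between the limb arrays their median SD was 0.07 log2 for bright probes and 0.33 log2 for those below -4. The 3 probes named Rest checked the labels: CKO limb kept 5.83%, 6.38% and 24.8% of the WT limb signal, and CKO brain kept 8.39% and 53.3% of the WT brain signal at 2 of them. At the third, Rest was not well above background in CKO brain, and the fall was at least 6.60-fold.

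The neuronal transport kinesins were far higher in brain than in limb, and one of them, Kif5a, was also higher in CKO limb than in WT limb. Kif5a, a heavy chain of conventional kinesin found in neurons, had a level of 5.32 in CKO brain, 5.30 in WT brain, 2.05 in CKO limb and -0.20 in WT limb. Both brain arrays were high and alike, and the limb arrays lay apart, with CKO limb above WT limb. The difference in limb was 2.25 log2, or 4.75-fold, and in brain 0.02 log2. The CKO limb signal amounted to 10.5% of the WT brain signal, and the WT limb signal to 2.21%.

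Kif5c, the other Kif5 heavy chain typical of neurons, had 6.20 in CKO brain, 6.21 in WT brain, 1.37 in CKO limb and 0.77 in WT limb. Its limb difference was 1.51-fold, under the 2-fold size, and in brain CKO minus WT was -0.0046 log2. CKO limb held 3.50% of the WT brain signal. Kif1a, the fast motor of synaptic vesicle precursors, had 5.32 in CKO brain, 5.33 in WT brain, 1.30 in CKO limb and 1.12 in WT limb. In limb the genotypes lay within 1.13-fold of each other for Kif1a. Kif3c, a kinesin-2 subunit of neurons, had 2.39 in CKO brain, 2.52 in WT brain, 0.08 in CKO limb and 0.11 in WT limb, so here the limb arrays were level with each other.

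**Figure D1:**
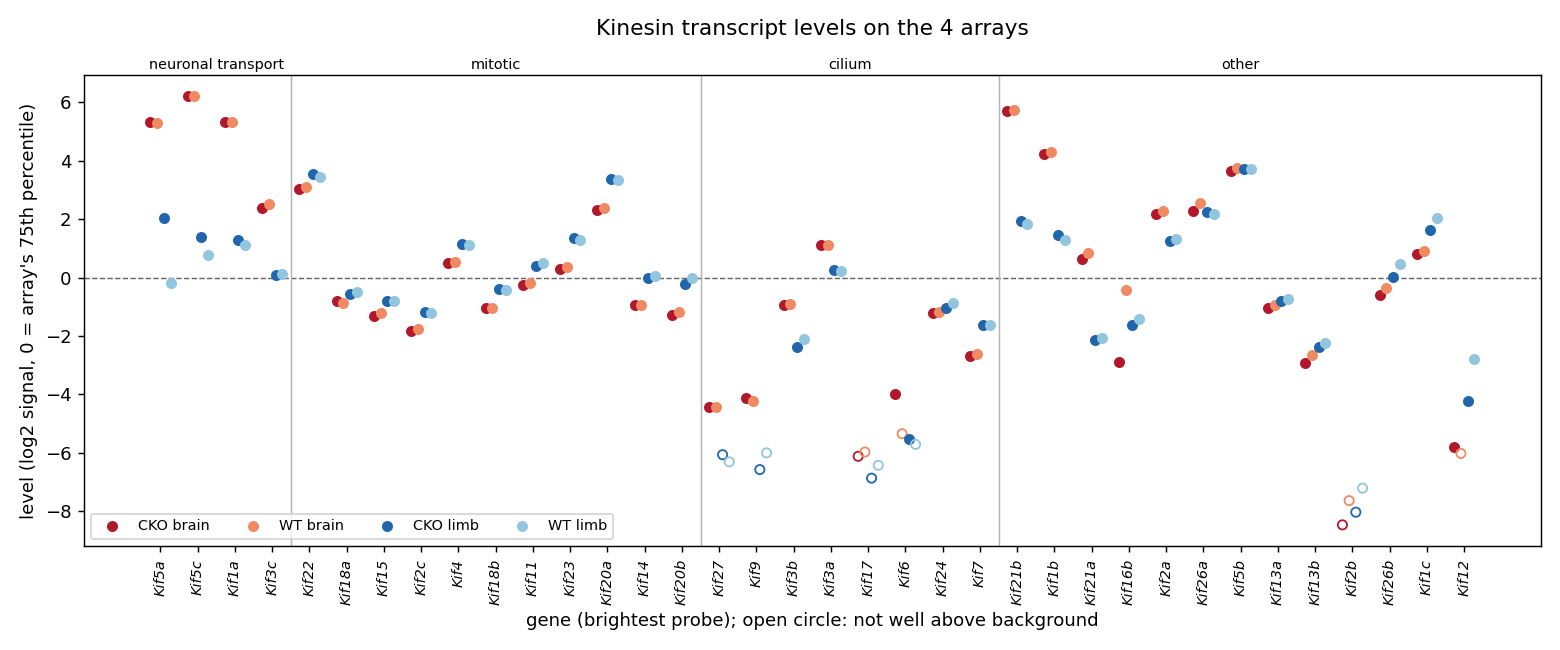
Level of each of the 36 kinesins on the 4 arrays, grouped by role, as log2 signal relative to the 75th percentile of the array, 1 point per array and open circles where not well above background. The 4 transport kinesins sit far higher in brain, Kif5a is the one with CKO limb (2.05) well above WT limb (-0.20), and the 11 mitotic kinesins sit slightly higher in limb.

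Kif5b, the third Kif5 heavy chain and the one most cells use, lay level across the tissues. It had 3.65 in CKO brain, 3.74 in WT brain, 3.72 in CKO limb and 3.73 in WT limb. All 4 arrays lay close together, and the brain minus limb difference of -0.03 ± 0.06 log2 (SE, 2 arrays per tissue) did not pass the limma test (adjusted p = 0.681).

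The second probes of the transport kinesins were dim in limb and, in WT limb, not well above background. A difference is then a bound, set against the lowest signal that counted as well above background on that array, or against the probe's own reading where that was higher. At the second Kif5a probe, the one printed above, CKO limb was at least 2.33-fold above WT limb. At the second Kif5c probe the limb bound was at least 1.28-fold, and at the second Kif1a probe at least 1.05-fold. Where CKO limb alone is well above background, such a bound can only put CKO limb level or higher. Its direction is therefore no check on the brightest probe, and the Kif5c and Kif1a bounds did not reach 2-fold. The second Kif3c probe, A_52_P41759, behaved unlike the first: it had -4.71 in CKO brain, -4.64 in WT brain, -2.67 in CKO limb and a reading not well above background in WT limb. There CKO limb was at least 4.87-fold above WT limb, and it was above both brain arrays. The 2 Kif3c probes thus disagree on the limb, since the brighter one put CKO limb and WT limb 1.02-fold apart. Both probes carry the same transcript accession and lie at chr12:3403902-3403961 for the brighter and chr12:3365723-3365782 for the second, on mm9.

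Among the 32 kinesins that could be compared in limb, 1 was at least 2-fold higher in CKO (Kif5a) and 1 was at least 2-fold lower (Kif12). The same size was reached by 2.49% of all genes on the higher side, 2.15% on the lower side and 4.64% on either, so 1 gene on each side is near the background. Over the 4 transport kinesins the limb differences had a median of 0.39 log2, over the 11 mitotic ones 0.02 log2 and over all genes -0.02 log2. In brain, of 34 compared, 1 was at least 2-fold higher in CKO (Kif6) and 1 was lower (Kif16b), against 1.37% and 1.23% of all genes, or 2.59% on either side. The brain medians were -0.01 log2 for the transport kinesins, -0.07 log2 for the mitotic ones and -0.01 log2 for all genes. These medians are over genes of 2 arrays and are descriptions, since genes are not replicates.

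**Figure D2:**
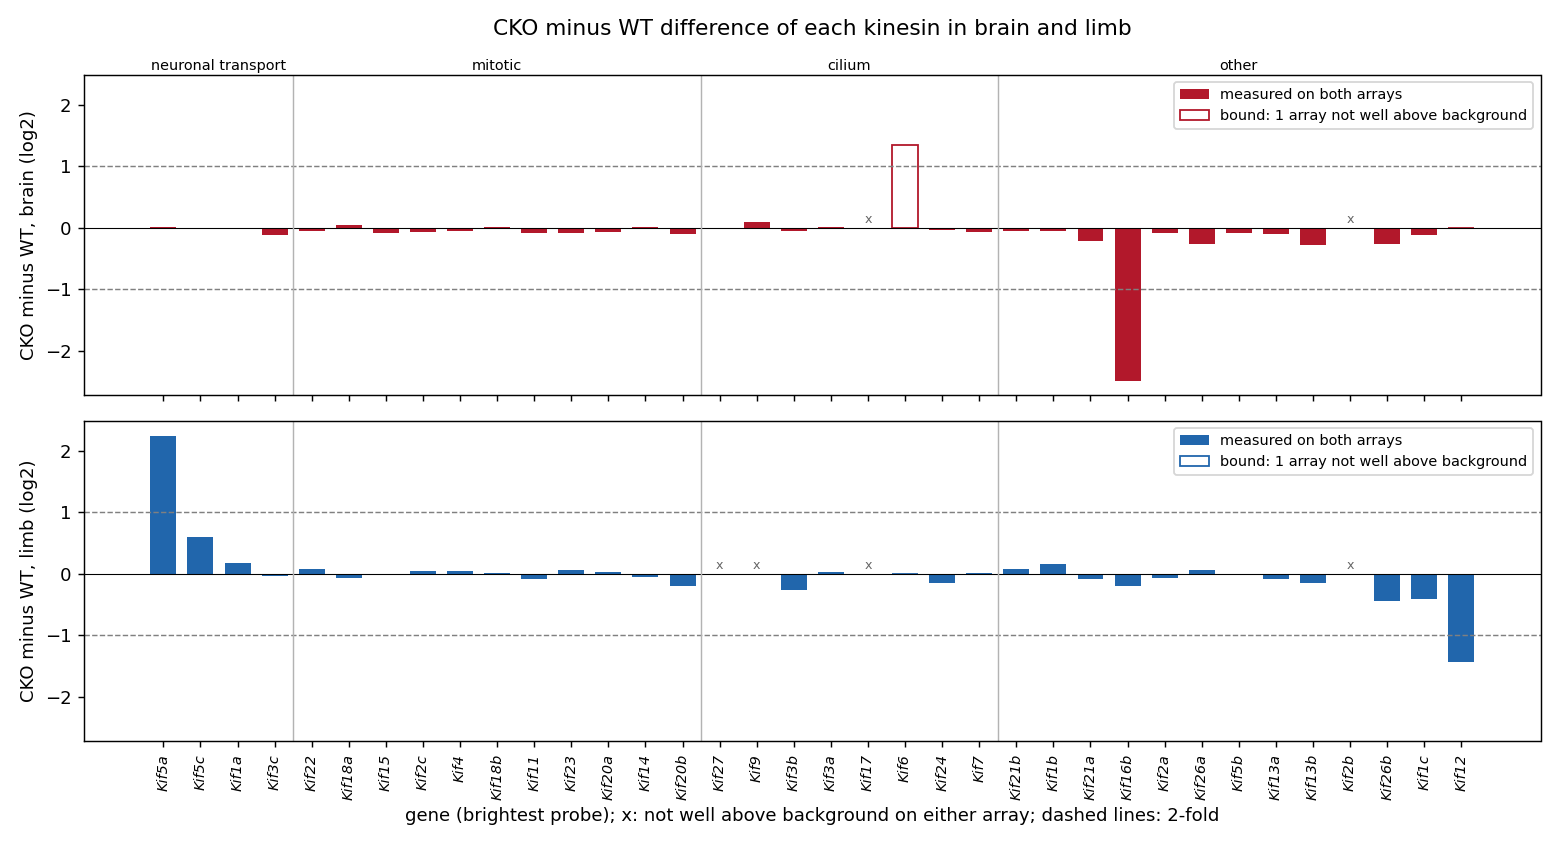
CKO minus WT difference in log2 for each kinesin, in brain (upper panel) and limb (lower panel), grouped by role, with bounds as open bars, dashed lines at 2-fold and x where neither array was well above background. Kif5a (2.25) is the one past 2-fold on the higher side in limb, Kif6 (a bound of 1.35) in brain, and Kif12 (-1.43 in limb) and Kif16b (-2.48 in brain) are on the lower side.

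The neuron markers moved in limb along with Kif5a. Of 10 neuron markers on the array, all 10 had a higher value in CKO limb and 5 were at least 2-fold higher, against 2.49% of all genes. Their median difference was 1.48 log2, against -0.02 log2 over all genes. The summed signal of the 10 markers, in units of the 75th percentile, was 274 in CKO brain, 277 in WT brain, 22.6 in CKO limb and 13.1 in WT limb. Ncam1, the brightest of them in limb, had 3.34 in CKO limb and 3.19 in WT limb, only 1.11-fold apart. Elavl3 and Snap25 were not well above background in WT limb, so their differences were bounds that could only put CKO limb level or higher. Of 6 neural progenitor markers, 4 could be compared in limb and all 4 had a higher value in CKO, none of them at least 2-fold, with a median of 0.26 log2. Nes, Hes5 and Fabp7 were well above background in both limb arrays, Sox1 in CKO limb, and Sox2 and Pax6 in neither. The Sox1 difference was likewise a bound that could only put CKO limb level or higher. In a whole tissue, more cells of a type cannot be told apart from more RNA per cell. The part of the neuron and progenitor markers in the Kif5a result was not tested.

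Partners of kinesins and other motors were read from a list of 29 genes, all on the array. In CKO limb 3 of the 29 reached 2-fold on the higher side and 0 on the lower, and in brain 0 were called in either direction. The list median was 0.06 log2 in limb and -0.06 log2 in brain. The same size was reached by 2.49% of all genes on the higher side and 2.15% on the lower in limb, and by 2.59% on either side in brain. Mapk8ip2, a JIP scaffold that links kinase modules to kinesin light chains, had 2.74 in CKO brain, 2.54 in WT brain, 1.86 in CKO limb and -2.66 in WT limb. That is a 23.1-fold difference in limb, with CKO limb nearer to the brain arrays than to WT limb. Mapk8ip1, its close relative, was 2.75-fold higher in CKO limb, with 1.80 against 0.34 in WT limb. Ppfia3, a liprin-alpha that binds Kif1a, was 2.02-fold higher, with 0.31 in CKO limb and -0.71 in WT limb. Of their relatives on the list, 3 lay closer together in limb: Mapk8ip3 was 1.09-fold apart, Ppfia1 1.09-fold and Ppfia4 1.34-fold. Ppfia2 was not well above background in WT limb, and its limb difference was a bound of at least 1.03-fold. The light chain Klc1 was 1.15-fold apart.

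Brain against limb could be tested over both genotypes, with genotype as a block. The test was limma on 15641 genes well above background and unsaturated on all 4 arrays, with Benjamini-Hochberg adjustment. Of the 30 kinesins tested, 10 were higher in brain and 16 were lower, at an adjusted p under 0.05. Across all genes 32.2% were called higher in brain, 34.4% lower and 66.5% either way. At 10 of 30 the higher side is near the background, and at 16 of 30 the lower side is above it. With the mean of all probes 9 of 30 were higher and 13 lower. Among genes well above background on at least 1 array, 11 of 34 were higher and 13 lower, so the lower count depends on the processing. By size alone, in WT embryos 9 of 33 kinesins were at least 2-fold higher in brain and 3 were lower, against 15.9% and 18.8% of all genes, or 34.7% on either side. Between CKO brain and CKO limb 11 of 34 were higher and 6 lower, against 15.1% and 16.9% of all genes, or 32.0% on either side. With 1 residual degree of freedom, the 2 arrays of a tissue differ in genotype and stand in for replicates.

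All 4 transport kinesins were higher in brain. The brain minus limb difference was 5.13 ± 0.20 log2 for Kif5c, 4.39 ± 0.70 for Kif5a, 4.12 ± 0.08 for Kif1a and 2.36 ± 0.06 for Kif3c (SE, 2 arrays per tissue), with limma adjusted p of 0.0058, 0.025, 0.0057 and 0.0057. As folds these are 35.1-fold, 20.9-fold, 17.4-fold and 5.12-fold. The wider error of Kif5a reflects its spread between the limb arrays: brain exceeded limb by 5.50 log2 in WT and 3.27 log2 in CKO. As limits, Kif5a lost its call (adjusted p = 0.053) when genes well above background on at least 1 array were tested, and Kif3c (adjusted p = 0.231) with the mean of all its probes. The neuron markers moved with them: 8 of 8 tested were higher in brain, and their part in this result was not tested. Of the partner list, 18 of 27 tested were higher in brain and 4 lower, against 32.2% and 34.4% of all genes.

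Of the 11 other kinesins tested, 4 were higher in brain, 4 were lower and 3 did not pass, with a median of -0.03 log2. Across all genes 32.2% were called higher and 34.4% lower, so 4 of 11 each way is near the background. The 4 higher in brain were Kif21b, Kif21a, Kif2a and Kif1b. Kif21b, a motor of neuronal dendrites and axons, had 5.70 in CKO brain, 5.75 in WT brain, 1.94 in CKO limb and 1.85 in WT limb, a difference of 3.83 ± 0.07 log2 (SE, 2 arrays per tissue, limma adjusted p = 0.0057). Kif21a, its close relative, had 0.64 in CKO brain, 0.84 in WT brain, -2.16 in CKO limb and -2.07 in WT limb, and was 7.23-fold higher in brain. Kif2a, which takes microtubules apart and trims axon branches, was 1.94-fold higher. For Kif21b, Kif21a and Kif2a the brain arrays lay above the limb arrays, with little gap between CKO and WT.

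Kif1b gave different answers at different probes. Its brightest probe had 4.24 in CKO brain, 4.30 in WT brain, 1.45 in CKO limb and 1.29 in WT limb. That probe and one other carry the accession NM_207682 and were 7.48-fold and 6.56-fold higher in brain. The 2 probes carrying NM_008441, of which one is printed above, were 2.71-fold and 2.35-fold lower in brain (limma on each probe, adjusted p = 0.012 and 0.013). RefSeq gives both accessions to Kif1b, a mitochondria and vesicle motor, and which transcripts each probe reads was not settled here. Kif1c, which moves vesicles in many cell types, also split: 3 probes were lower in brain, by 1.85-fold to 2.89-fold, and 1 probe, A_51_P438349, was 6.18-fold higher (limma on each probe). With the mean of its probes Kif1c lost its call (adjusted p = 0.194).

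**Figure D3:**
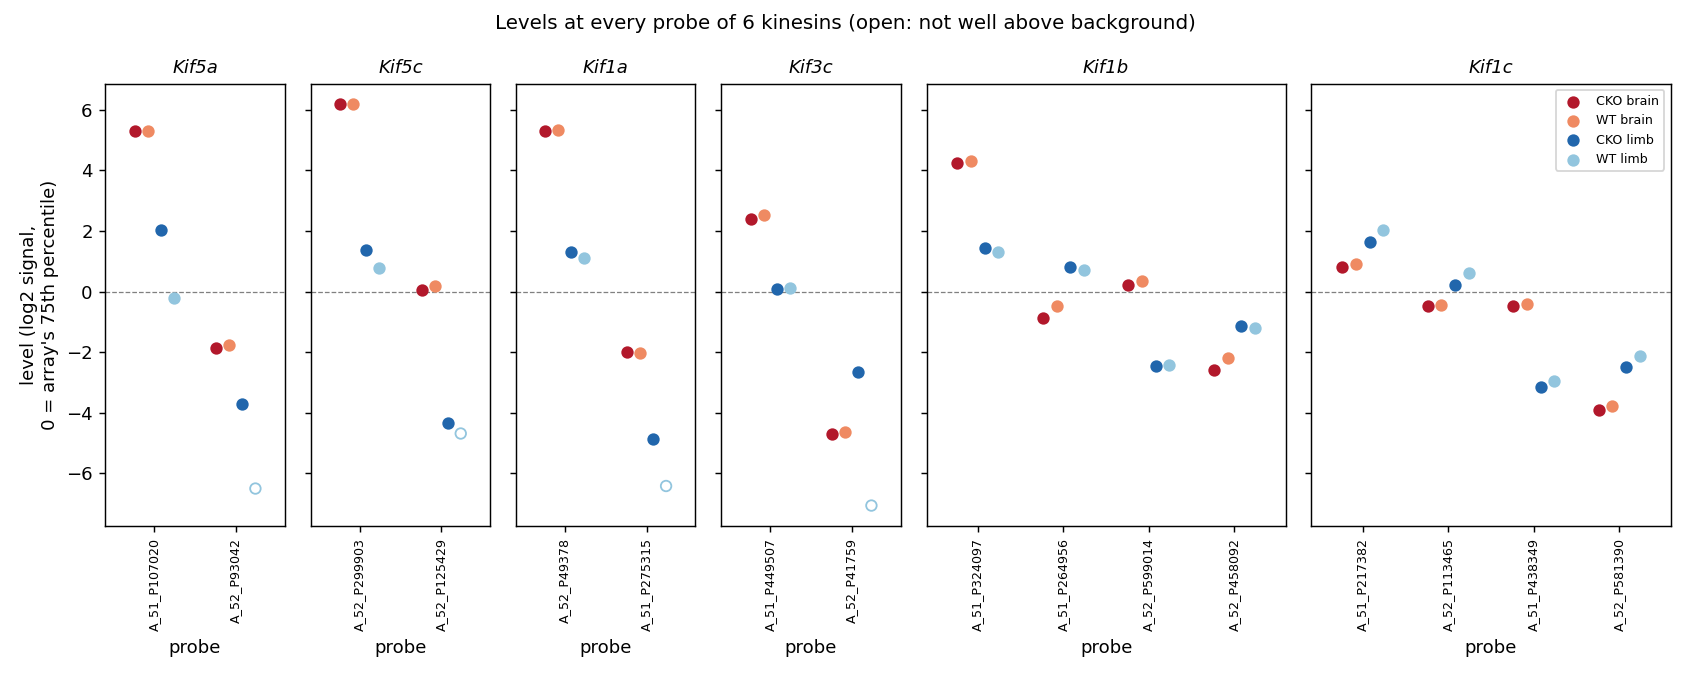
Level at every probe of 6 kinesins on the 4 arrays (log2 signal, 0 is the 75th percentile of the array), with open points not well above background. Brain points are above limb points at both probes of Kif5a, Kif5c and Kif1a, while the probes of Kif1b and Kif1c go opposite ways, and those of Kif3c do so between CKO brain and CKO limb.

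All 11 mitotic kinesins were lower in brain than in limb, by 1.23-fold (Kif18a) to 2.12-fold (Kif20b), with a median of -0.64 log2 against -0.03 log2 for all genes. By limma 11 of 11 were called lower in brain, against 34.4% of all genes. The largest differences were in motors of cytokinesis. Kif20b had -1.27 in CKO brain, -1.17 in WT brain, -0.23 in CKO limb and -0.03 in WT limb. Kif20a, which works in the central spindle, had 2.31 in CKO brain, 2.38 in WT brain, 3.38 in CKO limb and 3.35 in WT limb. Kif23, a subunit of the centralspindlin complex, had 0.28 in CKO brain, 0.35 in WT brain, 1.34 in CKO limb and 1.28 in WT limb. For each of these 3, both brain arrays lay below both limb arrays. The brain minus limb differences were -1.09 ± 0.06, -1.02 ± 0.06 and -0.99 ± 0.07 log2 (SE, 2 arrays per tissue), with limma adjusted p of 0.0068, 0.0070 and 0.0079.

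Motors of the spindle and the chromosomes followed. Kif11, which pushes spindle poles apart, had -0.25 in CKO brain, -0.17 in WT brain, 0.41 in CKO limb and 0.49 in WT limb. Kif15, which backs it up in spindle assembly, had -1.31 in CKO brain, -1.22 in WT brain, and -0.82 in both CKO limb and WT limb. Kif4, a chromokinesin, had 0.49 in CKO brain, 0.54 in WT brain, 1.16 in CKO limb and 1.12 in WT limb. These 3 were 1.59-fold, 1.36-fold and 1.54-fold lower in brain. Kif22, a chromosome-arm motor, had 3.05 in CKO brain, 3.1 in WT brain, 3.54 in CKO limb and 3.45 in WT limb. Kif2c, a depolymerase at centromeres, had -1.84 in CKO brain, -1.77 in WT brain, -1.18 in CKO limb and -1.23 in WT limb. They were 1.34-fold and 1.51-fold lower in brain.

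Kif18a and Kif18b limit microtubule length in the spindle, and they were 1.23-fold and 1.56-fold lower in brain. Kif18a had -0.81 in CKO brain, -0.86 in WT brain, -0.57 in CKO limb and -0.50 in WT limb, and Kif18b had -1.04 in CKO brain, -1.05 in WT brain, -0.39 in CKO limb and -0.41 in WT limb. Kif14, another motor of cytokinesis, had -0.93 in CKO brain, -0.95 in WT brain, -0.01 in CKO limb and 0.04 in WT limb. A second Kif14 probe, A_51_P518790, read -1.33 in WT brain and was not well above background in CKO brain, so that CKO brain was at least 29.1-fold lower there, while the brightest probe put CKO brain and WT brain 0.02 log2 apart. In limb the second probe read -5.28 in CKO and was not well above background in WT, so WT brain was its only high array. With the mean of all probes the Kif14 tissue difference turned to 0.21 log2 (limma adjusted p = 0.834). Kif18a (adjusted p = 0.076) and Kif22 (adjusted p = 0.054) lost their call when genes well above background on at least 1 array were tested.

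The markers of dividing cells moved with the mitotic kinesins. Of 16 such markers, 15 were lower in brain by limma, against 34.4% of all genes, with a median difference of -0.71 log2. Their summed signal was 115 in CKO brain, 117 in WT brain, 194 in CKO limb and 197 in WT limb, and all 16 were well above background on every array. Their part in the mitotic kinesin result was not tested. Between genotypes the values lay close: CKO minus WT for the mitotic kinesins ran from -0.20 to 0.09 log2 in limb and from -0.10 to 0.04 log2 in brain. In either tissue 0 of 11 reached 2-fold. Of all genes 4.64% did so in limb and 2.59% in brain, so 0 of 11 is near the background.

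**Figure D4:**
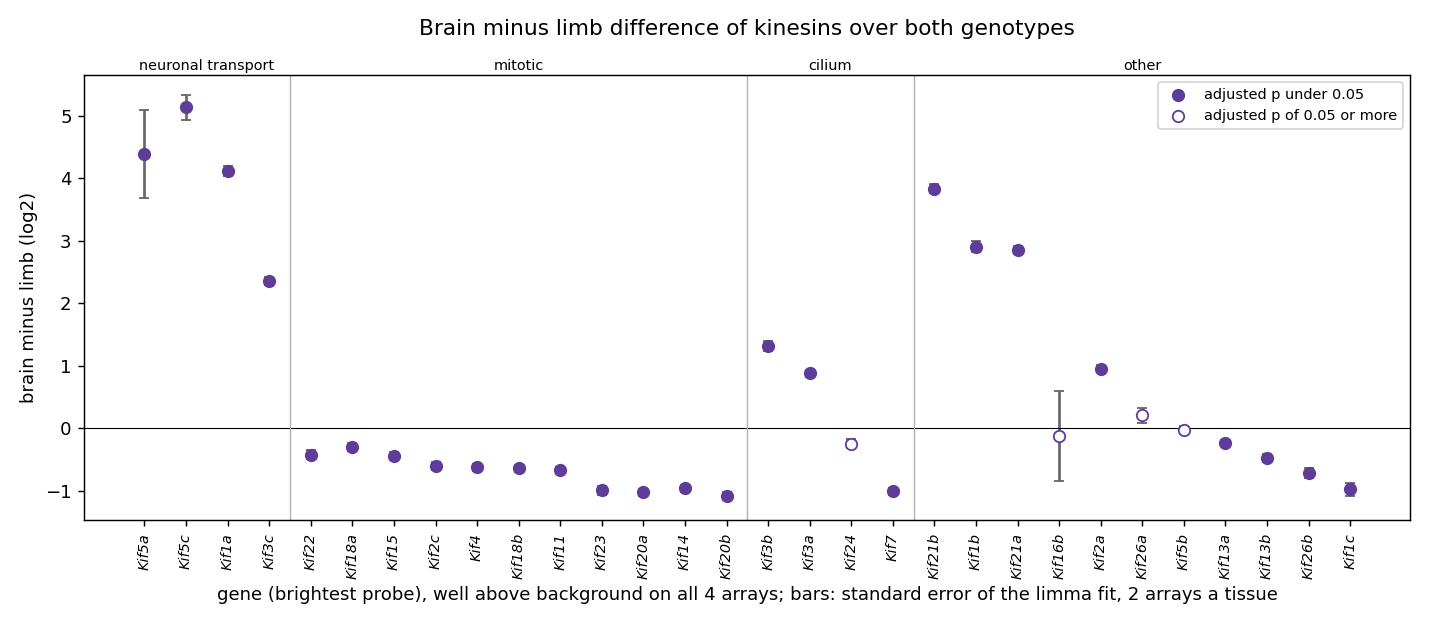
Brain minus limb difference in log2 for the 30 kinesins tested over both genotypes, with the limma standard error, grouped by role; filled points have an adjusted p under 0.05. The 4 transport kinesins lie between 2.36 and 5.13, and the 11 mitotic kinesins between -1.09 and -0.30.

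The promoters of the mitotic kinesins are shown because these genes moved together between tissues. The part of any promoter element in that difference was not tested. Many cell-cycle genes carry a CHR element, TTTGAA, often beside a CCAAT box. RefSeq windows of 300 bases (250 before and 50 after each start, build GRCm38.p6) were found for 31 of the 36 kinesins and searched on both strands. These 31 genes have 35 windows. A gene counted where any of its windows held a motif, while the share over all windows is per window. TTTGAA was in 9 of 10 mitotic kinesins with a window, 1 of 3 transport kinesins, 1 of 8 cilium kinesins and 1 of 10 others, against 17.9% of all 32851 windows. CCAAT was in 6 of 10 mitotic, 0 of 3 transport, 5 of 8 cilium and 3 of 10 other kinesins, against 37.4% of all windows. Printed 5′ to 3′ on the gene's strand are the bases from 70 before to 30 after the start, with both motifs in capitals on either strand, for the 7 mitotic kinesins that hold TTTGAA there and for the 3 transport kinesins with a window.
Kif4, chrX:100625995-100626094, plus strand: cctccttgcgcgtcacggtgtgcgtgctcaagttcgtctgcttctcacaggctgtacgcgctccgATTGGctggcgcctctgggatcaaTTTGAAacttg
Kif11, chr19:37376312-37376411, plus strand: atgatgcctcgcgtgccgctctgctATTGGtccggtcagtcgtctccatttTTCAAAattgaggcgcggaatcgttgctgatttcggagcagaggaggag
Kif15, chr9:122951011-122951110, plus strand: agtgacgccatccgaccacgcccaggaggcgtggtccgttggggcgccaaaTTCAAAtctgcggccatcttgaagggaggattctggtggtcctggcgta
Kif18b, chr11:102925095-102925194, minus strand: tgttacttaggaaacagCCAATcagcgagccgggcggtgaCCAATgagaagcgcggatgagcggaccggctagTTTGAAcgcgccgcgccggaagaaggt
Kif20b, chr19:34922288-34922387, plus strand: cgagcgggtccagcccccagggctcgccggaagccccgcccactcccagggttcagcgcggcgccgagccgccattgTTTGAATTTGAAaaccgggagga
Kif22, chr7:127042391-127042490, minus strand: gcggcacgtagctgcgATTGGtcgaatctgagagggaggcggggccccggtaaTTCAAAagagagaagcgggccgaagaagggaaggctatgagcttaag
Kif23, chr9:61946770-61946869, minus strand: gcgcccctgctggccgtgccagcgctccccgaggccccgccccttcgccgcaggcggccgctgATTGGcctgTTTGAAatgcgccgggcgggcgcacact
Kif1a, chr1:93101845-93101944, minus strand: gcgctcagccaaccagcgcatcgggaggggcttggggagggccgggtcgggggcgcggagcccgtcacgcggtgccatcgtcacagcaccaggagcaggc
Kif3c, chr12:3365062-3365161, plus strand: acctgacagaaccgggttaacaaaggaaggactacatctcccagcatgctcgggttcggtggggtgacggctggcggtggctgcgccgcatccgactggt
Kif5c, chr2:49619216-49619315, plus strand: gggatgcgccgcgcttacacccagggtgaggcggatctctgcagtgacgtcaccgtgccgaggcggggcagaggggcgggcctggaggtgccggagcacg
In these 7 mitotic promoters the leftmost base of TTTGAA, or of its reverse complement, lies between 19 bases before and 20 after the start, and Kif20b has it 2 times in a row. The 3 transport promoters show neither motif in the printed stretch, which for Kif1a is the first of its 2 windows.

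The RE1 core was searched for in the same windows as CAGCACC and GGACAG with 2 bases between them. It was in 0 of 31 kinesins and in 12 of all windows, 0.0365%. Its left part, CAGCACC, was in 9 of 31 kinesins, against 7.14% of all windows, and its right part, GGACAG, in 9 of 31, against 22.2%. Kif1a held both parts in its windows, Kif5c the left and Kif3c the right, none of them joined as the core. No match says only that these letters are not in these windows, and Kif5a had no window.

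Cilium kinesins split. Kif3a and Kif3b, the subunits of the motor that carries cargo into cilia, were 1.84-fold and 2.50-fold higher in brain, and Kif7, a regulator of Hedgehog signalling in the cilium, was 2.01-fold lower, a call lost with the mean of its probes (adjusted p = 0.075). The other Kif7 probe was not well above background on any array. Kif24 did not pass the test (-0.24 ± 0.06 log2, SE, 2 arrays per tissue, limma adjusted p = 0.062). Kif9 and Kif27 were well above background in brain alone, at -4.13 and -4.44 in CKO brain and at -4.22 and -4.44 in WT brain. A second, dimmer Kif27 probe lies on the strand opposite the gene. The motile cilium markers had a summed signal of 2.84 in CKO brain, 3.02 in WT brain, 0.354 in CKO limb and 0.298 in WT limb, and their part was not tested. Kif6 had -4.002 in CKO brain, -5.54 in CKO limb and no reading well above background in WT brain or WT limb. Its CKO brain level was at least 2.54-fold above WT brain, and with the normexp background the difference was 0.40 log2.

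The other kinesins varied in direction. Kif26b, known in embryonic mesenchyme, was 1.64-fold lower in brain, Kif13b was 1.39-fold lower and Kif13a 1.18-fold lower, the last losing its call under quantile scaling (adjusted p = 0.052), while Kif26a did not pass the test (0.21 ± 0.12 log2, SE, 2 arrays per tissue, limma adjusted p = 0.218). Kif12, a motor of kidney and liver epithelium, had -5.79 in CKO brain, a reading not well above background in WT brain, -4.21 in CKO limb and -2.78 in WT limb. It was 2.70-fold lower in CKO limb, but by 0.84 log2 with the normexp background and by 0.41 log2 with the mean of its probes, both under 2-fold. The other Kif12 probe was not well above background on any array. The 5 epidermis markers were all below 0 for CKO minus WT in limb, with a median of -0.66 log2. Of 5 red cell markers compared there, 4 were at least 2-fold lower, against 2.15% of all genes. Klf1 went the other way, with a CKO minus WT difference of 0.59 log2 in limb. The part of the epidermis and red cell markers in the Kif12 value was not tested.

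Kif16b, a motor of early endosomes, had -2.90 in CKO brain, -0.41 in WT brain, -1.63 in CKO limb and -1.44 in WT limb. WT brain was the highest array and CKO brain the lowest, 5.59-fold apart. The second Kif16b probe, A_51_P243545, put CKO brain 1.12-fold below WT brain. Over both genotypes the brightest probe did not pass the tissue test (-0.12 ± 0.72 log2, SE, 2 arrays per tissue, limma adjusted p = 0.890). The second probe did pass it, 2.49-fold lower in brain (-1.32 ± 0.08 log2, limma on each probe, adjusted p = 0.0060). Of 9 cartilage markers, 7 rose by 2-fold or more from WT brain to CKO brain, against 1.37% of all genes. Their summed signal was 23.3 in CKO brain, 8.66 in WT brain, 33.0 in CKO limb and 33.5 in WT limb. Of 8 skeletal muscle markers, 6 could be compared in brain. All 6 had a higher value in CKO, and 2 of them, Myl1 and Myh3, reached 2-fold. Matn1, Matn3, Hapln1, Myog and Des were not well above background in WT brain, so their differences were bounds. The part of the cartilage and muscle markers in the Kif16b and Kif6 values was not tested.

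Genotype was also fitted over both tissues, with tissue as a block. By limma 0 of 30 kinesins passed an adjusted p of 0.05, and 0% of all genes did, while 1 kinesin, Kif26b, had an unadjusted p under 0.05 (-0.35 ± 0.08 log2, CKO minus WT, SE, 2 arrays per genotype, limma adjusted p = 0.660). Of all genes 6.29% had an unadjusted p under 0.05. Kif5a had a genotype coefficient of 1.13 ± 0.70 log2 in this fit, since its difference was 2.25 log2 in limb and 0.02 log2 in brain. Whether the genotype effect differs between tissues could not be tested with 1 array per group. Even Rest probe A_52_P31687 did not pass for genotype (-3.77 ± 0.13 log2, SE, 2 arrays per genotype, limma on each probe, adjusted p = 0.635). The count of 0 of 30 kinesins therefore cannot tell changed genes from unchanged ones.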

How the data were processed

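Labelled RNA from 4 samples, 1 per group, was hybridised to single-colour arrays, all on 1 slide. Per the submitters' processing notes, the scans were read with Agilent Feature Extraction 9.5.3.1. The deposited intensity values had been background-subtracted and detrended within each array, per the file headers, and not normalized between arrays. Log2 signal was computed here from the deposited intensity, and each array's 75th percentile over non-control spots was subtracted. Control and outlier spots were left out, and spots of a probe were averaged. A probe counted as detected where the scanner software called most of its spots well above background.

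Brightest-probe values per gene entered limma 3.58.1 (R 4.3.3), with tissue or genotype tested and the other as a block. The fit was tested on simulated data. Python 3.11.15 with numpy 2.4.6 and pandas 2.3.3 did the rest. The members, groups and lists were chosen with earlier results of these data known. All kinesins could be named, with all arrays' values for transport and mitotic kinesins and for others at least 2-fold apart by genotype or 4-fold by tissue. Spread between spots says nothing of labelling or of embryos, and precision is limited by how many arrays there are.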

Additional observations from a re-analysis of the deposited data

How the results depend on the processing

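No paired analysis was possible because each group had 1 array and the labels give no shared replicate numbers. The alternatives were quantile or median scaling, normexp background, the deposited series table, the mean of all probes, another detection filter and a 1.5-fold size, and the fit on each probe was chosen after seeing the data. With normexp, 1 kinesin was called in limb (1 higher, 0 lower) and 1 in brain (0 higher, 1 lower), and 11 between CKO brain and CKO limb, against 17. The mean of all probes gave 2 in limb (2 higher, 0 lower) and 3 in brain (1 higher, 2 lower). Requiring detection on both arrays left 1 in brain. At 1.5-fold, 22 were called between WT brain and WT limb, against 12, and 26 between CKO brain and CKO limb. With the mean of all probes the limb median of the transport kinesins was 1.53 log2, the Kif16b difference between WT brain and WT limb was -0.19 log2, against 1.02, and the Kif14 tissue difference was 0.21 log2. For Kif16b and Kif14 the second probe disagreed with the first, and the transport median takes in second-probe readings in WT limb that were not well above background. Leaving out 1 array in turn, without the block, gave 19 to 25 kinesins called by tissue and 0 by genotype; with the block no residual degrees of freedom remain. Of the alternative tests of single kinesins, 144 kept their call, 11 lost it and 1 reversed; of the size differences, 154 stayed within the technical spread, 39 moved and 1 reversed. Dim signal limits Kif6, Kif9, Kif12 and Kif27 most.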
